A study of Homo sapiens with 12 samples.

Results

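HOX genes encode homeodomain transcription factors and lie in 4 clusters, HOXA on chromosome 7, HOXB on chromosome 17, HOXC on chromosome 12 and HOXD on chromosome 2. Here they were followed in AC16 cells exposed to doxorubicin. The members were all rows of the deposited count table with a symbol made of HOX, a cluster letter from A to D and a number. This gave 39 of the 60607 rows, 11 in HOXA, 10 in HOXB, 9 in HOXC and 9 in HOXD. A low-count filter left 29 of the 39 for testing, and 17320 rows in all. AC16 is a human line made by fusing ventricular heart cells with transformed fibroblasts, and doxorubicin is an anticancer drug that poisons topoisomerase II and so breaks DNA. The 12 libraries were made from total RNA of cells labelled wild type, in 4 groups of 3: controls in DMEM, and exposures of 2, 4 and 6 days to doxorubicin at 0.1 µM. The titles write them as 48, 96 and 112 h, which for the last is not 6 days, and carry the words day 6 throughout. Day 2, day 4 and day 6 below name lengths of exposure. The labels do not settle whether all groups were harvested together, so the control group may not be matched in time to each exposure. Whether replicate libraries stem from separate cultures is not in the labels. The p-values therefore rest on a spread between libraries that may be technical.

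Within a cluster the genes are numbered by paralog group, from 1 at the 3′ end to 13 at the 5′ end. In embryos the 3′ genes are switched on earlier and further forward along the body than the 5′ genes, an order called collinearity. Adult fibroblasts keep a HOX pattern that records where in the body they came from. Polycomb complexes hold silent HOX genes off and Trithorax complexes keep active ones on, retinoic acid switches on genes at the 3′ end, and PBX and MEIS proteins bind DNA together with HOX proteins. Paralog groups 1 to 3 are called anterior below, 4 to 8 central and 9 to 13 posterior.

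Library totals lay between 14835743 and 21226441 counts, of which HOX genes held 0.0159% to 0.0252%. Control replicate 2 and day 2 replicate 3 stood apart from their groups in the mitochondrial share of counts, with 8.26% against 6.01% and 6.75% in the other controls, and with 5.51% against 7.62% and 7.74% in the other day 2 libraries. Where leaving out both ended a HOX call or changed a sum's order against the controls, the value without them is given. The labels call the cells cardiomyocytes, but only ACTN2 of 10 cardiomyocyte markers passed the filter, MYL2 was at 0 in every library, and the 10 together summed to 0.568 to 0.985 CPM in controls, 1.23 to 1.76 CPM at day 2, 0.780 to 1.75 CPM at day 4 and 1.53 to 1.71 CPM at day 6. All 10 fibroblast markers passed, and their sum was 14871 to 15970 CPM in controls, 23900 to 25358 CPM at day 2, 20099 to 22277 CPM at day 4 and 18292 to 18971 CPM at day 6. Of its members, 6 were called higher and 1 lower at day 2, 2 higher and 5 lower at day 4, and 2 higher and 6 lower at day 6. At day 6 FN1, the member with the highest level, was higher with a log2 fold change of 0.53, while LUM (-1.86), PDGFRB (-1.29), DCN (-0.97) and COL3A1 (-0.82) were lower. Smooth muscle markers summed to 138.1 to 162.1 CPM in controls, 290.2 to 324.3 CPM at day 2, 222.7 to 233.9 CPM at day 4 and 194 to 211.8 CPM at day 6. Of the 3 tested, 2 were called higher and 0 lower at day 2, 1 higher and 1 lower at day 4, and 1 higher and 2 lower at day 6. Epithelial markers summed to 88.1 to 119.6 CPM in controls, 227.5 to 253.5 CPM at day 2, 69.7 to 87.4 CPM at day 4 and 63.0 to 70.1 CPM at day 6. All 4 were tested, with 2 higher and 1 lower at day 2, and 0 higher and 2 lower at days 4 and 6 alike. Beside the fibroblast, smooth muscle and epithelial counts stand the shares of all genes tested. These were 23.8% higher and 23.4% lower at day 2, 18.8% and 17.7% at day 4, and 22% and 21.7% at day 6. The fibroblast, smooth muscle and epithelial sums were thus all highest at day 2, and the epithelial sum was below every control at days 4 and 6. Over all libraries endothelial markers summed to 19.95 to 27.2 CPM and leukocyte markers to 2.87 to 4.80 CPM. The part of these markers in the HOX results was not tested. In these bulk libraries fewer cells of a type and less RNA per cell cannot be told apart. CPM is the usual unit of counts scaled to library size, normalised here by trimmed-mean (TMM) library factors.

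Control AC16 cells carried RNA from all 4 clusters, with the highest levels per length at HOXB9, HOXC8, HOXB7, HOXA9 and HOXB2. On the scale of normalised CPM per kilobase of exon, HOXB9 stood at 13.1 ± 1.41 (SD, n = 3, as for all levels here) and HOXC8 at 11.9 ± 2.82, a difference within the spread of the libraries. HOXB7 at 8.15 ± 1.37, HOXA9 at 7.77 ± 0.222 and HOXB2 at 7.63 ± 0.524 CPM per kilobase came next and did not differ from each other beyond their spread. HOXB3 followed at 3.71 ± 0.0979 and HOXA10 at 3.25 ± 0.438 CPM per kilobase. Every other member was below 2.4 CPM per kilobase in controls.

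**Figure D1:**
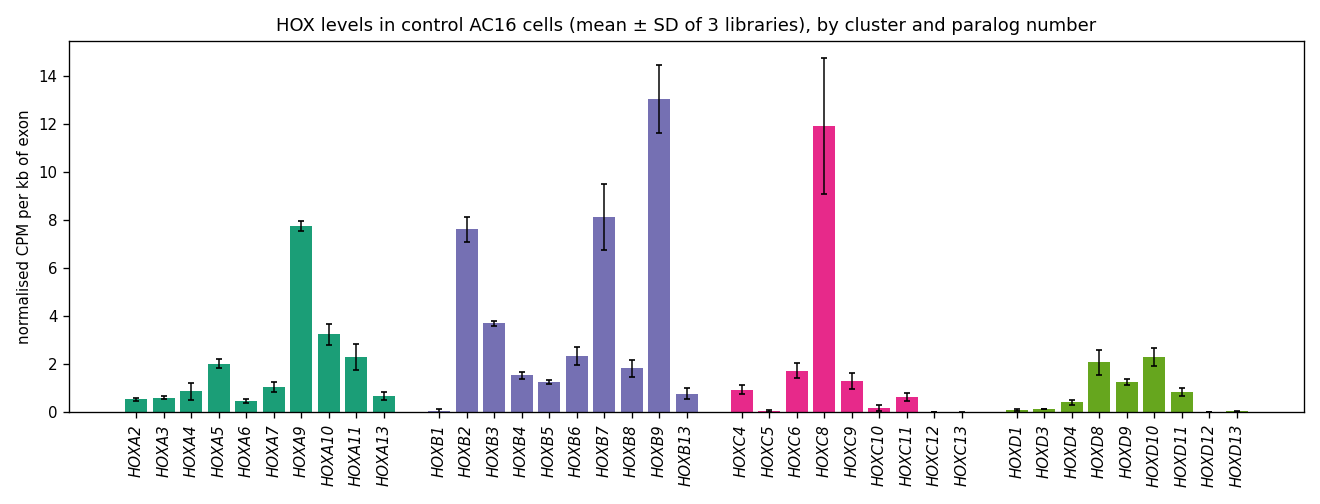
Level of the HOX genes reported singly in control AC16 cells, as normalised CPM per kilobase of exon (bars, mean of 3 libraries; error bars, SD), ordered by cluster and paralog number. HOXB9 and HOXC8 are the tallest bars at 13.1 and 11.9, and HOXC12, HOXC13, HOXD1, HOXD12 and HOXD13 at the ends of their clusters lie near 0.

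The 29 members that passed the filter had 74 to 4819 counts over the 12 libraries, and the 10 that did not had 0 to 67. Those 10 were HOXA6, HOXB1, HOXC5, HOXC10, HOXC12, HOXC13, HOXD1, HOXD3, HOXD12 and HOXD13, so 10 of 11 HOXA, 9 of 10 HOXB, 5 of 9 HOXC and 5 of 9 HOXD genes were tested. By position 5 of 8 anterior, 13 of 15 central and 11 of 16 posterior genes were tested. Closest to the limit were HOXD4 inside it with 74 counts and HOXD3 and HOXA6 outside it with 67 and 66. HOXA6 did not pass with all libraries, and had 29 counts in the 3 controls, 12 at day 2, 14 at day 4 and 11 at day 6. In fits where it passed because 1 library was left out, HOXA6 was called lower at day 2 without day 2 replicate 3 (log2 fold change -2.01, adjusted p = 0.0353), and at day 6 without day 6 replicate 2 (-1.92, adjusted p = 0.0475) or replicate 3 (-2.03, adjusted p = 0.0429). HOXC12 had no count in any library.

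At day 2, 11 of the 29 tested HOX genes were lower in doxorubicin-treated cells than in controls and none was higher, at an adjusted p under 0.05 in edgeR's quasi-likelihood test with Benjamini-Hochberg adjustment over all 17320 genes. Among all genes tested 23.4% were called lower and 23.8% higher at day 2, 47.2% in either direction. The count of higher HOX genes was 0 also with DESeq2 and at an unadjusted p under 0.05. At day 4 the count was 3 higher and 5 lower, against 18.8% higher and 17.7% lower of all genes (36.5% in all). At day 6 it was 3 higher and 7 lower, against 22% higher and 21.7% lower of all genes (43.7% in all). Counting only whether the libraries of the groups overlapped, 0 HOX genes were higher and 12 lower at day 2 with no overlap, against 26.1% in each direction of all genes. At day 4 these counts were 4 higher and 9 lower (22.8% and 21.8% of all genes), and at day 6 they were 4 higher and 8 lower (25.8% and 25.1%). The 3 comparisons share the same 3 control libraries. The test of any difference among the 4 groups called 14 of the 29, against 63.4% of all genes.

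The called genes are listed next by the exposures at which they passed the test, and a missed call does not show that a gene was unchanged. Among others, HOXA5 and HOXD9 at day 4 and HOXB4 at day 6 did not overlap the controls and yet were not called. Of 35 calls of a HOX gene over all comparisons, 15 were lost in some alternative fit. HOXA2, HOXB8, HOXB9 and HOXC11 were lower than in controls at all 3 exposures. HOXA5, HOXB5, HOXB6 and HOXD9 were called lower only at day 2, HOXB2 and HOXB3 at days 2 and 6, HOXA7 at days 2 and 4, and HOXD4 at day 6. HOXA13 and HOXD10 were higher at days 4 and 6, HOXB4 at day 4 and HOXD11 at day 6. The other 13 tested members were called in no comparison with the control. The median log2 fold change of the 29 was -0.20 at day 2, -0.02 at day 4 and -0.17 at day 6, beside -0.01, 0.00 and -0.01 for all genes tested. With library totals in place of TMM, the median of all genes moved to -0.14 at day 2 and that of the HOX genes to -0.32, with 12 HOX genes lower and 0 higher against 5386 lower and 3203 higher of all genes. Without control replicate 2 and day 2 replicate 3 the HOX counts were 0 higher and 9 lower at day 2, 4 higher and 3 lower at day 4, and 3 higher and 5 lower at day 6.

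**Figure D2:**
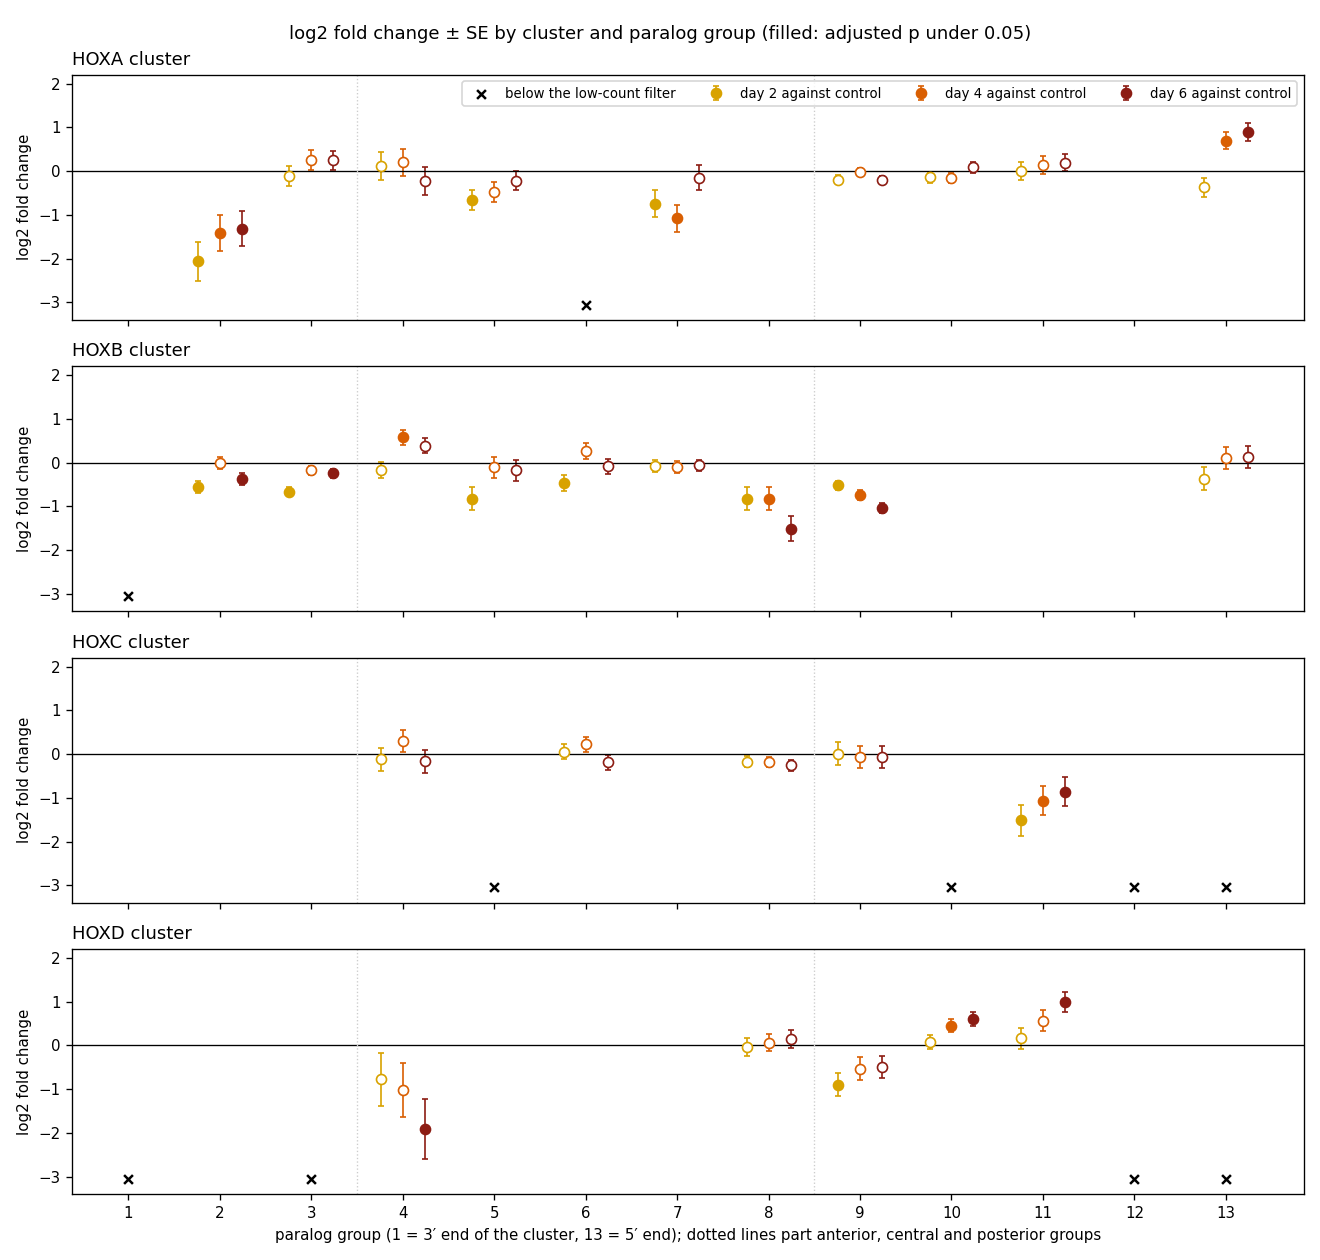
Log2 fold change of the tested HOX genes reported singly against control (points; bars, SE) at day 2, day 4 and day 6, with one panel per cluster and the paralog group on the x axis. Filled points passed an adjusted p of 0.05 and crosses mark the 10 members below the low-count filter. The filled points of HOXB lie below 0 with the exception of HOXB4 at day 4, and HOXA13, HOXD10 and HOXD11 at the posterior end lie above 0 at day 6.

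The sequence upstream of the start is shown for 4 of the genes that moved, HOXA2, which was lower at every exposure, and HOXA13, HOXD10 and HOXD11, which were all higher at day 6. RefSeq's promoter table held 20 of the 39 members and 6 of the 16 that were called in a comparison with the control. Each window runs from 250 bases before to 50 after RefSeq's gene start, 5′ to 3′ on the strand of the gene, in GRCh38.p14. The windows are chr7:27102634-27102933 for HOXA2 and chr7:27200042-27200341 for HOXA13, both on the minus strand, and chr2:176116528-176116827 for HOXD10 and chr2:176107030-176107329 for HOXD11, both on the plus strand. For HOXD10 and HOXD11 RefSeq's start lies inside the longer gene that GENCODE annotates. Capitals mark matches on either strand to 5 motifs. The TATA box was searched as TATAAA. The motif that NF-Y binds was searched as CCAAT. For the GC box, bound by SP1, the letters were GGGCGG. For the composite site of PBX with HOX they were TGATNNAT. The p53 half-site was searched by its degenerate consensus.
HOXA2: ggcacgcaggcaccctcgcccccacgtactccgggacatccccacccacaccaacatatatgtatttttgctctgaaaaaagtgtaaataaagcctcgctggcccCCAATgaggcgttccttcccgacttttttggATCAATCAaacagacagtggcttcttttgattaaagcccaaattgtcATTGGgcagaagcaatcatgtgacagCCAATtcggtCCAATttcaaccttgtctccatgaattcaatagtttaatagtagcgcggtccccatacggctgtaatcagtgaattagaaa
HOXA13: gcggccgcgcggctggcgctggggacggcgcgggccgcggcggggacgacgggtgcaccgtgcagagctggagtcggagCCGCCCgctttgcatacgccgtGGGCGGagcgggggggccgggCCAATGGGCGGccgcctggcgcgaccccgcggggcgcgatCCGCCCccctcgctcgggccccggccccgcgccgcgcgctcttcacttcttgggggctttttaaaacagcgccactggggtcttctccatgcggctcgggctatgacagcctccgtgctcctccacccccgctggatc
HOXD10: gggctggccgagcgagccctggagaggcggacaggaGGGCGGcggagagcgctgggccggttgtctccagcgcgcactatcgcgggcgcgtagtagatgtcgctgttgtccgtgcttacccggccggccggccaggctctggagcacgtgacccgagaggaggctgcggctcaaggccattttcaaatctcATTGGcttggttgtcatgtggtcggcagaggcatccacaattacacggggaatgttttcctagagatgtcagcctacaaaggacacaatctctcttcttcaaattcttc
HOXD11: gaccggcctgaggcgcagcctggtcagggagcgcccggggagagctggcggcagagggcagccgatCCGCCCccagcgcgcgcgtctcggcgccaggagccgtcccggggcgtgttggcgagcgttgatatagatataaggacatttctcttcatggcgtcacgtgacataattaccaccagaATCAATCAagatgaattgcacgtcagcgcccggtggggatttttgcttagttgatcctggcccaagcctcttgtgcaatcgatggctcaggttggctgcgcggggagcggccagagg
The HOXA2 window held 4 CCAAT matches and 1 PBX-HOX match, which starts 114 bases before the gene start. The HOXD11 window held 1 PBX-HOX match, 67 bases before the start, and 1 GC box. The HOXA13 window held 4 GC boxes and 1 CCAAT match, which abuts one of the GC boxes, and the HOXD10 window held 1 GC box and 1 CCAAT match. Of 35114 promoter windows of the same length, 34.6% held a CCAAT match, 45.0% a GC box, 7.40% a PBX-HOX match, 11.5% a TATA box and 6.63% a p53 half-site. None of the 4 windows held a TATA box or a p53 half-site in these letters. Of the other called members with a window, HOXD4 held a p53 half-site that starts 55 bases before its start. The 4 windows ranged widely in base composition, with 46.3% G and C and 11 CpG in HOXA2, 76.3% and 44 in HOXA13, 60.0% and 23 in HOXD10 and 62.3% and 27 in HOXD11, beside medians of 58.7% and 14 over all promoters. A match is a run of letters and not a measured site.

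In the HOXA cluster an anterior gene fell and the last posterior gene rose. HOXA2 (ENSG00000105996.7, GRCh38 chr7:27100354-27102811), which patterns the hindbrain and the second branchial arch, read 1.31, 1.18 and 1.52 CPM in the controls, 0.151, 0.205 and 0.601 CPM at day 2, 0.566, 0.420 and 0.494 CPM at day 4, and 0.426, 0.654 and 0.509 CPM at day 6. All 9 treated libraries were below all 3 controls, and day 2 replicate 3 was the highest of the day 2 libraries. The log2 fold change was -2.06 ± 0.45 (SE) at day 2 with an adjusted p of 5.13e-04, a 4.17-fold lower level, and -2.88 without day 2 replicate 3 or -2.96 without control replicate 2 as well. It was -1.42 ± 0.41 at day 4 and -1.32 ± 0.40 at day 6, with adjusted p-values of 0.00859 and 0.0103. These values rest on 64 counts in the controls and 16, 26 and 30 counts at days 2, 4 and 6.

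HOXA13 (ENSG00000106031.9, chr7:27193503-27200106), needed in the embryo for digits and the urogenital tract, read 2.78, 3.22 and 4.36 CPM in the controls, 3.02, 2.46 and 2.40 CPM at day 2, 4.92, 5.34 and 6.42 CPM at day 4, and 5.12, 6.92 and 7.04 CPM at day 6. Day 2 overlapped the controls, and all 6 libraries of days 4 and 6 were above them. As a log2 fold change this was 0.70 ± 0.20 at day 4 and 0.89 ± 0.20 at day 6 (adjusted p = 0.00776 and 6.22e-04), and -0.37 ± 0.22 at day 2 (adjusted p = 0.165). Without control replicate 1 the adjusted p at day 4 was 0.0574.

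HOXA5 and HOXA7, both central genes, were lower at some exposures. HOXA5 (chr7:27141052-27143668), which lung development requires in the mouse, read 3.29, 3.81 and 3.24 CPM in the controls, 2.72, 2.12 and 1.62 CPM at day 2, 2.60, 2.46 and 2.36 CPM at day 4, and 2.25, 3.43 and 3.15 CPM at day 6. The day 2 and day 4 libraries were all below the controls and day 6 overlapped them. edgeR put the log2 fold change at -0.66 ± 0.23 at day 2 (adjusted p = 0.0207), and the adjusted p was 0.0611 without control replicate 2, 0.0527 without day 2 replicate 2, 0.111 without day 2 replicate 3 and 0.225 without control replicate 2 and day 2 replicate 3 together. At day 4 the change was -0.48 ± 0.23 (adjusted p = 0.105).

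HOXA7 (chr7:27153716-27157936) read 2.04, 3.09 and 2.51 CPM in the controls, 1.06, 1.92 and 1.62 CPM at day 2, 0.905, 0.840 and 1.81 CPM at day 4, and 2.80, 1.69 and 2.36 CPM at day 6. Days 2 and 4 lay below the controls and day 6 overlapped them. The log2 fold change was -0.75 ± 0.31 at day 2, -1.08 ± 0.32 at day 4 and -0.15 ± 0.29 at day 6, with adjusted p-values of 0.0480, 0.00871 and 0.698. The day 2 call was lost without control replicate 2 or 3 (adjusted p = 0.152 and 0.0839) and without day 2 replicate 1 or 3 (adjusted p = 0.236 and 0.0726), without control replicate 2 and day 2 replicate 3 together (adjusted p = 0.166), with DESeq2 (adjusted p = 0.0596) and with the replicate number as a block (adjusted p = 0.0552), and the day 4 call without day 4 replicate 1 (adjusted p = 0.0520). HOXA-AS3, on the other strand, covers 62.5% of the exonic bases of HOXA7 and had 45 counts in all 12 libraries, and its part in the HOXA7 values was not tested.

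**Figure D3:**
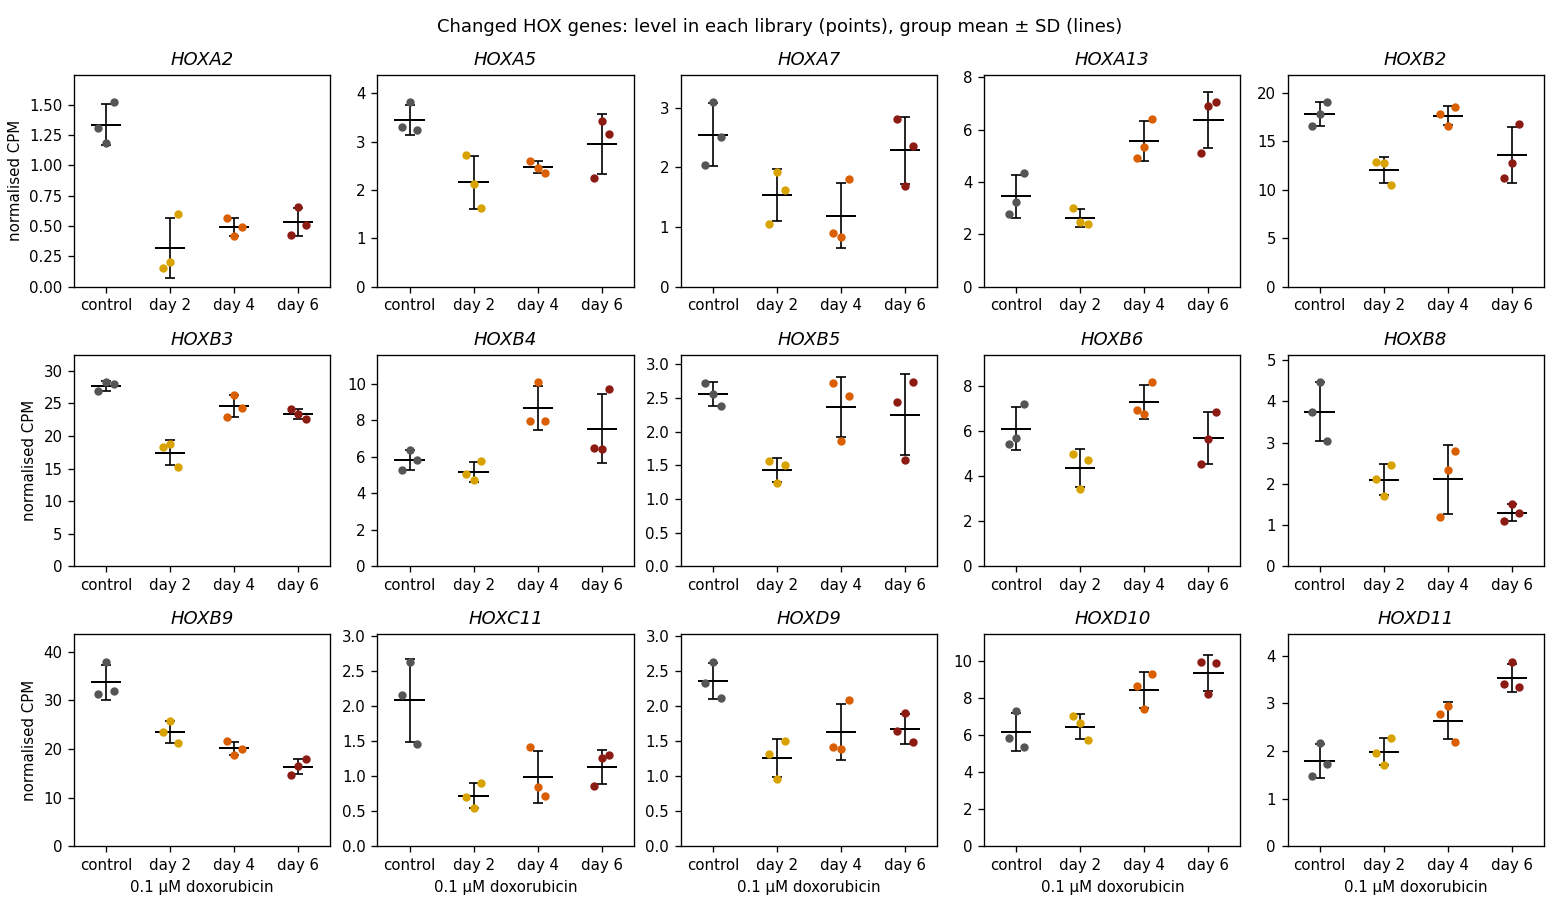
Normalised CPM of 15 HOX genes that changed (points, 1 per library; lines, mean ± SD of 3) in controls and after 2, 4 and 6 days of 0.1 µM doxorubicin, each panel with its own y axis from 0. HOXA2 and HOXB9 lie below the controls in all 9 treated libraries, HOXB2 to HOXB6 stand higher at day 4 than at day 2, and HOXA13, HOXD10 and HOXD11 are highest at day 6.

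The HOXB cluster held 6 of the 11 genes that fell at day 2 and 4 of the 7 that fell at day 6. At day 2, 6 of its 9 tested members were lower, at day 4 there were 2 lower and 1 higher, and at day 6 there were 4 lower. The lower members were 66.7%, 22.2% and 44.4% of those tested, against 23.4%, 17.7% and 21.7% of all genes. In either direction 66.7%, 33.3% and 44.4% were called, against 47.2%, 36.5% and 43.7% of all genes. HOXB9 (ENSG00000170689.10, chr17:48621159-48626356), the member with the highest level per length in controls, read 31.3, 37.9 and 31.8 CPM in the controls, 23.5, 25.7 and 21.2 CPM at day 2, 21.6, 18.8 and 20 CPM at day 4, and 14.7, 16.6 and 17.9 CPM at day 6. Every treated library was below every control, and every day 6 library was below every day 4 library. Against the control the log2 change was -0.52 ± 0.11 at day 2, -0.74 ± 0.11 at day 4 and -1.03 ± 0.11 at day 6, a 2.05-fold lower level at day 6 (adjusted p = 3.06e-04, 7.29e-06 and 3.55e-08). HOXB9 was called at all 3 exposures under every alternative run. Between day 6 and day 4 its change was -0.29 ± 0.11 (adjusted p = 0.122).

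HOXB8 (chr17:48611377-48614939), which can hold myeloid progenitors in an immature state when forced on, read 3.75, 4.46 and 3.04 CPM in the controls, 2.12, 1.71 and 2.46 CPM at day 2, 1.19, 2.34 and 2.80 CPM at day 4, and 1.10, 1.53 and 1.30 CPM at day 6. All treated libraries were below the controls. On the log2 scale the change was -0.83 ± 0.27 at day 2, -0.83 ± 0.26 at day 4 and -1.51 ± 0.28 at day 6, the last with an adjusted p of 9.81e-05. The day 2 call (adjusted p = 0.0124) was lost without day 2 replicate 2 (0.0570), and the day 4 call (adjusted p = 0.0160) without control replicate 2 (0.0631), without day 4 replicate 1 (0.116) and without control replicate 2 and day 2 replicate 3 together (0.0601). HOXB8 and HOXB9 share no exonic bases with another annotated gene.

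HOXB2 and HOXB3, the anterior genes of the cluster and both markers of hindbrain segments in the embryo, were lower at day 2. HOXB3 (ENSG00000120093.12, chr17:48548870-48604912) read 26.9, 28.2 and 27.9 CPM in the controls, 18.2, 18.8 and 15.3 CPM at day 2, 23.0, 26.3 and 24.3 CPM at day 4, and 24.1, 23.4 and 22.6 CPM at day 6. HOXB2 (chr17:48540894-48544989) read 16.6, 17.9 and 19.0 CPM in the controls, 12.9, 12.7 and 10.4 CPM at day 2, 17.9, 16.6 and 18.5 CPM at day 4, and 11.3, 12.8 and 16.8 CPM at day 6. Day 2 was the lowest group of HOXB3 and HOXB2 alike and did not overlap the controls. The log2 fold change at day 2 was -0.66 ± 0.10 for HOXB3 (adjusted p = 8.07e-06) and -0.56 ± 0.13 for HOXB2 (adjusted p = 0.00123), and these calls held under every alternative run. At day 6 the changes were smaller. HOXB2 was lower by -0.38 ± 0.13 on the log2 scale (adjusted p = 0.0219), with an adjusted p of 0.0814 without control replicate 3, 0.141 without day 6 replicate 1 and 0.0852 without day 6 replicate 2. HOXB3 was lower by -0.24 ± 0.10 at day 6 with an adjusted p of 0.0498, which was between 0.0644 and 0.132 without any 1 of the 6 libraries. It was 0.0574 with DESeq2 and 0.0769 without control replicate 2 and day 2 replicate 3 together. Of the 8 alternatives other than leaving out 1 library, 1 kept this HOXB3 call.

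Of the central genes HOXB4, HOXB5 and HOXB6, HOXB5 and HOXB6 were lower at day 2 and HOXB4 was higher at day 4. HOXB5 (chr17:48591257-48593961) read 2.73, 2.56 and 2.38 CPM in the controls, 1.56, 1.23 and 1.5 CPM at day 2, 2.71, 1.86 and 2.52 CPM at day 4, and 2.44, 1.58 and 2.73 CPM at day 6. Only day 2 lay apart from the controls, with a log2 fold change of -0.82 ± 0.26 (adjusted p = 0.0121). HOXB6 (chr17:48595751-48604992) read 5.45, 5.71 and 7.20 CPM in the controls, 4.99, 3.42 and 4.74 CPM at day 2, 6.96, 6.78 and 8.18 CPM at day 4, and 4.57, 5.67 and 6.85 CPM at day 6. Its day 2 libraries were below the controls by a narrow gap. The log2 difference was -0.46 ± 0.19 (adjusted p = 0.0440), and the call was lost without control replicate 3 (0.203), day 2 replicate 2 (0.213) or day 2 replicate 3 (0.0567) and with DESeq2 (0.0508).

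HOXB4 (chr17:48575513-48580111), which expands blood stem cells when overexpressed, read 5.28, 6.37 and 5.81 CPM in the controls, 5.04, 4.72 and 5.76 CPM at day 2, 7.97, 10.1 and 7.96 CPM at day 4, and 6.46, 6.43 and 9.72 CPM at day 6. Days 4 and 6 lay above the controls and day 2 overlapped them. The log2 fold change was 0.58 ± 0.17 at day 4 (adjusted p = 0.0106), with an adjusted p of 0.0529 without control replicate 1 and 0.0666 without day 4 replicate 2. At day 6 it was 0.39 ± 0.17 (adjusted p = 0.0747), and 0.48 or 0.49 with adjusted p-values of 0.0480 and 0.0423 without day 6 replicate 1 or 2. The annotated HOXB3 gene spans HOXB4, HOXB5 and part of HOXB6. HOXB3 shares 7.9% of its exonic bases with another gene on the same strand, HOXB4 17.1% and HOXB6 16.6%, while HOXB5 shares none on that strand.

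In HOXC 1 of the 5 tested members was called lower at each exposure. Of the 5 tested in HOXD, 1 was lower at day 2, 1 higher at day 4, and 2 higher and 1 lower at day 6. Among all genes tested 47.2%, 36.5% and 43.7% were called in either direction at days 2, 4 and 6. HOXC11 (ENSG00000123388.4, chr12:53973126-53977643), a posterior gene of the hindlimb bud, read 2.16, 2.63 and 1.45 CPM in the controls, 0.706, 0.548 and 0.901 CPM at day 2, 1.41, 0.840 and 0.714 CPM at day 4, and 0.853, 1.25 and 1.30 CPM at day 6. All treated libraries were below the controls, the highest of them at 1.41 CPM beside the lowest control at 1.45 CPM. As a log2 fold change this was -1.52 ± 0.35 at day 2 (adjusted p = 9.03e-04), a 2.86-fold lower level, and this call held under every alternative run. It was -1.07 ± 0.33 at day 4 (adjusted p = 0.0136), with an adjusted p of 0.0675 without control replicate 2, 0.0508 without day 4 replicate 2, 0.0730 without day 4 replicate 3 and 0.0647 without control replicate 2 and day 2 replicate 3 together. It was -0.86 ± 0.32 at day 6 (adjusted p = 0.0337), with an adjusted p of 0.0772 without control replicate 1, 0.149 without control replicate 2, 0.122 without day 6 replicate 1, 0.0550 without day 6 replicate 2, 0.146 without control replicate 2 and day 2 replicate 3 together and 0.0517 with the replicate block. HOXC4, HOXC6, HOXC8 and HOXC9 were called in no comparison with the control.

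In HOXD the posterior neighbours HOXD10 and HOXD11, which pattern the limb, were both called higher at day 6. HOXD11 (ENSG00000128713.14, chr2:176104216-176109754) read 1.48, 2.17 and 1.72 CPM in the controls, 1.97, 1.71 and 2.28 CPM at day 2, 2.77, 2.94 and 2.2 CPM at day 4, and 3.41, 3.87 and 3.33 CPM at day 6. Day 2 overlapped the controls, day 4 was just above them and day 6 was above every other library. edgeR put the log2 fold change at 0.99 ± 0.23 at day 6 (adjusted p = 0.00104), and 0.56 ± 0.24 at day 4 (adjusted p = 0.0660), where the adjusted p was 0.0377 without control replicate 2, 0.0451 without day 4 replicate 3 and 0.0381 without control replicate 2 and day 2 replicate 3 together.

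HOXD10 (ENSG00000128710.6, chr2:176108790-176119942) read 5.85, 7.29 and 5.35 CPM in the controls, 7.01, 6.64 and 5.71 CPM at day 2, 8.65, 7.38 and 9.28 CPM at day 4, and 9.93, 8.23 and 9.86 CPM at day 6. The day 4 and day 6 libraries were above all controls, day 4 replicate 2 by a narrow gap over control replicate 2. The log2 fold change was 0.60 ± 0.15 at day 6 (adjusted p = 0.00259), a call kept under every alternative run, and 0.46 ± 0.16 at day 4 (adjusted p = 0.0238). The day 4 call was lost without control replicate 1 (0.0837), control replicate 3 (0.116), day 4 replicate 1 (0.0667) or day 4 replicate 3 (0.101). The annotations of HOXD10 and HOXD11 share 452 exonic bases, 16.8% of HOXD10 and 21.4% of HOXD11, and the sources used here do not give how reads there were counted.

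HOXD9 (chr2:176122720-176124937), next to HOXD10 on its 3′ side, was called lower at day 2, where HOXD10 was not called. HOXD9 was not called at days 4 and 6, where HOXD10 was higher, and its difference from HOXD10 was not tested. It read 2.33, 2.63 and 2.11 CPM in the controls, 1.31, 0.958 and 1.5 CPM at day 2, 1.41, 1.38 and 2.09 CPM at day 4, and 1.65, 1.91 and 1.48 CPM at day 6. All treated libraries were below the controls, with a log2 fold change of -0.89 ± 0.27 at day 2 (adjusted p = 0.00893) and values of -0.53 ± 0.26 and -0.49 ± 0.26 at days 4 and 6 that did not pass the test (adjusted p = 0.121 and 0.129). HOXD4 had 30 counts in the controls and 19, 16 and 9 at days 2, 4 and 6. Its log2 fold change was -1.91 ± 0.69 at day 6 (adjusted p = 0.0271). The HOXD4 call was lost without control replicate 1 (0.0679), control replicate 3 (0.0755), day 6 replicate 2 (0.0931) or day 6 replicate 3 (0.114), and its log2 fold change was -2.56 without day 6 replicate 1. Of the exonic bases of HOXD4, 80.5% are shared with another annotated gene on the same strand.

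The 13 members called in no comparison with the control included several of the strongest in these cells. HOXA9, a gene of blood progenitors and leukaemia, averaged 23.5 ± 0.672 CPM in controls, 20.4 ± 1.36 at day 2, 23.1 ± 0.966 at day 4 and 20.5 ± 1.03 CPM at day 6. Its log2 fold change was -0.20 ± 0.10 at day 2 and at day 6, with adjusted p-values of 0.0991 and 0.0968, although its groups did not overlap in either comparison, and with library totals alone the day 2 change was -0.32 (adjusted p = 0.00848). HOXB7 had log2 fold changes of -0.08 ± 0.13, -0.10 ± 0.13 and -0.07 ± 0.13 at days 2, 4 and 6, and the 95% interval at day 6 ran from -0.33 to 0.20. HOXC8 had -0.17 ± 0.13, -0.18 ± 0.12 and -0.26 ± 0.12, with an adjusted p of 0.0980 at day 6, and 0.0216 without control replicate 1. A log2 change of the size seen for HOXB9 at day 6 lies outside these intervals for HOXB7 and HOXC8. Over the 13 members the log2 fold change lay between -0.37 (HOXB13 at day 2) and 0.30 (HOXC4 at day 4).

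Between day 4 and day 2, 6 HOX genes were higher at day 4 and none was lower, against 16.3% higher and 18.5% lower of all genes (34.8% in all). Without overlap between the groups 10 were higher and 0 lower, against 22.2% and 23.7% of all genes. The count of lower genes was 0 also with DESeq2 and at an unadjusted p under 0.05, and it was 1 (HOXB9, adjusted p = 0.0463) without control replicate 2 and day 2 replicate 3. The 6 were HOXA13 and the 5 neighbours HOXB2, HOXB3, HOXB4, HOXB5 and HOXB6, which follow each other along the HOXB cluster. HOXA13 was higher by 1.07 ± 0.20 on the log2 scale (adjusted p = 2.05e-04). HOXB4 was higher by 0.74 ± 0.17, HOXB6 by 0.72 ± 0.18 and HOXB5 by 0.72 ± 0.26. HOXB2 was higher by 0.55 ± 0.13 and HOXB3 by 0.49 ± 0.10. Of these, HOXB5 was the least secure, with an adjusted p of 0.0366 that was between 0.0610 and 0.136 without day 2 replicate 1, 2 or 3 or day 4 replicate 1 or 3, 0.0602 without control replicate 2 and day 2 replicate 3 together, and 0.0527 with DESeq2. HOXB7, HOXB8 and HOXB9 at the other side of the block were not called higher. The comparison uses the same day 2 libraries as the comparison of day 2 with the control, in which 4 of these 5 HOXB genes were lower.

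Between day 6 and day 4 no HOX gene was called with edgeR or with DESeq2, against 3.05% higher and 3.73% lower of all genes (6.78% in all). Without overlap 2 were higher and 3 lower, against 13.3% and 14.3% of all genes. At an unadjusted p under 0.05 there were 5, HOXA7 (0.93 ± 0.31), HOXB2 (-0.37 ± 0.13), HOXB8 (-0.68 ± 0.30), HOXB9 (-0.29 ± 0.11) and HOXC6 (-0.41 ± 0.16). HOXA7 passed without day 4 replicate 3 (adjusted p = 0.0255) and HOXB2 without day 6 replicate 3 (adjusted p = 0.0172). Both passed without control replicate 2 and day 2 replicate 3 (adjusted p = 0.0459 for HOXA7 and 0.0458 for HOXB2).

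Summed over all 39 members, HOX RNA was 180.0 ± 9.01 CPM at day 2, 209.0 ± 3.5 CPM at day 4 and 196.1 ± 9.27 CPM at day 6, against 226.5 ± 19.1 CPM in controls, and every treated library was below every control. The gap was narrow at day 4, with 211.7 CPM in day 4 replicate 3 beside 212.4 CPM in control replicate 1. The HOXB sum was 79.9 ± 5.18 CPM at day 2, 97.3 ± 3.08 CPM at day 4 and 84.9 ± 7.36 CPM at day 6, against 112.7 ± 8.05 CPM in controls, which is 70.9%, 86.3% and 75.4% of the control level. The HOXB groups did not overlap the controls at any exposure. The HOXA sum was lower than in controls only at day 2, with 52.6 ± 2.12 CPM against 60.6 ± 1.30 CPM, and the HOXC sums overlapped the controls at every exposure. Without control replicate 1, the lowest control, the HOXC sum lay below the other controls at day 2 (81.4% of their mean) and day 6 (76.5%). The HOXD sum was 21.5 ± 0.680 CPM at day 6 against 17.2 ± 2.72 CPM in controls, 124.8% of the control level and above every control. HOXB thus made up 43.3 ± 1.76% of all HOX RNA at day 6 and HOXD 10.96 ± 0.724%, against 49.8 ± 0.885% and 7.57 ± 0.661% in controls. Control replicate 2 had the highest sum of the controls in all 4 clusters. Without control replicate 2 and day 2 replicate 3, the sum over all HOX genes was 85.8%, 96.9% and 91.0% of control at days 2, 4 and 6, and the HOXB sum 76.5%, 89.8% and 78.4%, with no overlap in either. The HOXA sum at day 2 was then 89.4% of control. The HOXD sum was 102%, 123.2% and 136.9% of control and above every remaining control at days 4 and 6, and the HOXC sum was 103.2%, 105.5% and 94.4% of control and overlapped the controls. These sums are descriptions with no test, and in each the members with the highest levels weigh most.

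**Figure D4:**
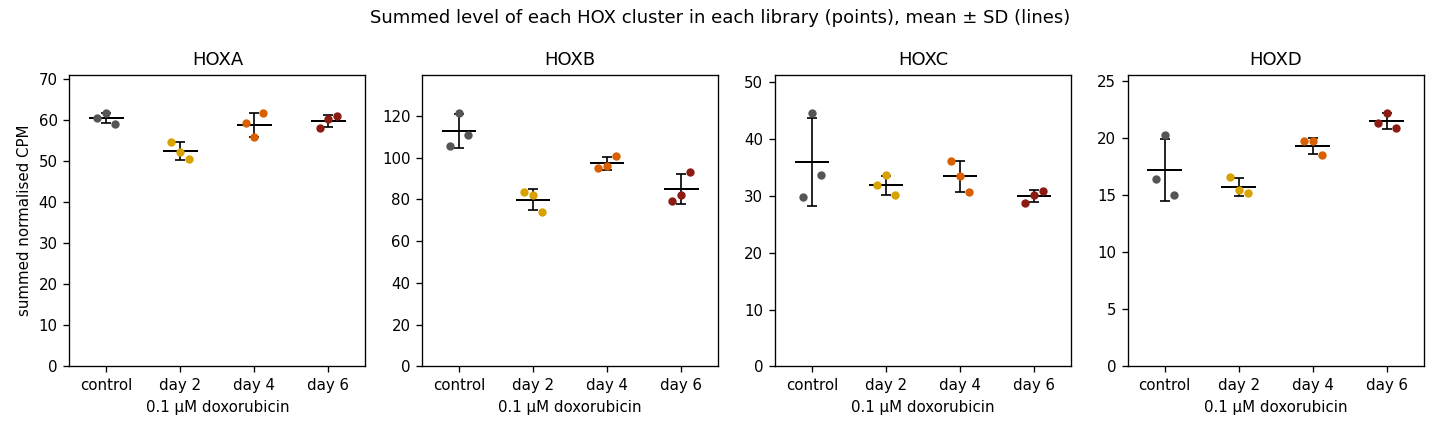
Summed normalised CPM of the members of each HOX cluster (points, 1 per library; lines, mean ± SD of 3) in controls and after 2, 4 and 6 days of 0.1 µM doxorubicin, with a y axis from 0 in each panel. All treated HOXB sums lie below the 3 controls, and the day 6 HOXD sums lie above them.

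By position the anterior genes had the lowest sum relative to the control at days 2 and 6, and the posterior genes at day 4. These orders rest largely on a few HOXB genes. HOXB3 and HOXB2 held 27.7 and 17.8 CPM of the anterior control sum. HOXB9 went from 33.7 CPM in controls to 20.1 CPM at day 4, while the whole posterior sum went from 95.8 to 84.5 CPM. The anterior sum was 37.3 ± 4.44 CPM at day 2 against 54.4 ± 2.16 CPM in controls, 68.6% of the control level. The central sum stood at 85.0% and the posterior sum at 81.2% of control at day 2. At day 6 the anterior sum was 82.2%, the central 89.3% and the posterior 86.9% of control. Without control replicate 2 and day 2 replicate 3 the anterior sum was 73.4%, 93.1% and 82.3% of control at days 2, 4 and 6, the central sum 94.3%, 105.8% and 97.5%, and the posterior sum 86.7%, 92.4% and 91.1%. The central sum at day 4 was then above the remaining controls. All 3 genes called higher at day 6 were posterior, HOXA13, HOXD10 and HOXD11, and 2 posterior genes, HOXB9 and HOXC11, were lower in the same comparison, so direction was not shared by position. Of the 11 tested posterior genes 27.3% were higher and 18.2% lower at day 6, near the 22% and 21.7% of all genes. Of the paralogs in group 9, HOXB9 was lower at all exposures and HOXD9 at day 2, while HOXA9 and HOXC9 were not called. Of group 11, HOXD11 was higher at day 6 and HOXC11 lower, while HOXA11 had a log2 change of 0.19 ± 0.19 (adjusted p = 0.448). Where one paralog was called and another was not, the difference between them was not tested.

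Partners and regulators of HOX genes were read from gene lists. Beside their counts stand the shares of all genes tested, 23.8% higher and 23.4% lower at day 2, 18.8% and 17.7% at day 4, and 22% and 21.7% at day 6. All 9 TALE genes, which encode the PBX, MEIS and PKNOX cofactors of HOX proteins, were tested. At day 2, 1 was higher and 5 were lower, at day 4 there were 3 lower and at day 6 there were 2 lower, with median log2 fold changes of -0.24, -0.18 and -0.13. The lower members were 55.6%, 33.3% and 22.2% of those tested, the last next to the 21.7% of all genes. PBX2 was lower at all exposures, with 18.3 ± 2.36, 22.9 ± 1.07 and 22.6 ± 2.95 CPM at days 2, 4 and 6 against 30.3 ± 0.880 CPM in controls, and so was PKNOX1, with log2 fold changes of -0.57 ± 0.10, -0.35 ± 0.09 and -0.33 ± 0.09. PBX3 was lower at day 2, by -0.55 ± 0.09 on the log2 scale (adjusted p = 2.67e-05), and not called at days 4 and 6.

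All 27 Polycomb genes were tested, and 4 were higher and 13 lower at day 2, 2 higher and 12 lower at day 4, and 3 higher and 13 lower at day 6. The lower members were 48.2%, 44.4% and 48.2% of the list and the higher ones 14.8%, 7.41% and 11.1%. The median log2 fold change was -0.21, -0.27 and -0.24. PHF19, a subunit that guides the PRC2 complex, was at 32.9 ± 2.58, 44.7 ± 1.36 and 38.2 ± 2.34 CPM at days 2, 4 and 6, against 86.4 ± 9.08 CPM in controls. EZH2, the methyltransferase of PRC2, was at 33.4 ± 2.55 CPM at day 2 against 70.9 ± 3.74 CPM in controls, a log2 fold change of -1.08 ± 0.08. CBX2, of the PRC1 complex, was lower by -1.89 ± 0.19 on the log2 scale at day 2 and CBX7 by -1.63 ± 0.17. Of 14 Trithorax genes and H3K27 demethylases 13 were tested, with 1 higher and 7 lower at day 2, 6 lower at day 4 and 5 lower at day 6, and median log2 fold changes of -0.25, -0.23 and -0.20. The lower members were 53.9%, 46.2% and 38.5% of those tested, and the count at day 4 was between 3 and 6 over all fits. PSIP1, which tethers the KMT2A complex to chromatin, was at 309.9 ± 31.1, 437.5 ± 37.2 and 362.1 ± 30.2 CPM at days 2, 4 and 6, against 608.3 ± 16.7 CPM in controls, and KDM6A, an H3K27 demethylase, was higher at day 2 by 0.56 ± 0.09 on the log2 scale.

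Of 19 CDX and retinoic acid genes 9 were tested, with 2 higher and 2 lower at day 2, and 2 higher and 3 lower at days 4 and 6 alike. The higher members were 22.2% of those tested at each exposure and the lower ones 22.2%, 33.3% and 33.3%, and the list's median was 0.17, -0.16 and -0.20 as a log2 fold change. CYP26B1, which breaks down retinoic acid, was at 5.13 ± 1.03 CPM at day 2 against 1.32 ± 0.166 CPM in controls (log2 fold change 1.95 ± 0.25), and ALDH1A3, which makes it, was higher by 0.94 ± 0.12 at day 4 and 1.04 ± 0.12 at day 6. The receptor gene RARG was lower by -0.43 ± 0.12, -0.94 ± 0.12 and -1.10 ± 0.12 at days 2, 4 and 6. CDX1, CDX2 and CDX4, direct activators of central HOX genes in the embryo, had 1, 0 and 6 counts in all 12 libraries.

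Non-coding RNAs of the clusters and the genes beside them were read in the same way. Of 25 non-coding genes of the HOX clusters 11 were tested, with 1 higher at day 2, 2 higher at day 4 and 2 higher at day 6, and none lower, and with median log2 fold changes of -0.05, -0.01 and 0.19. The higher members were 9.09%, 18.2% and 18.2% of those tested. HOTAIRM1, transcribed next to HOXA2 from the opposite strand, was at 7.58 ± 0.554 CPM at day 4 against 4.72 ± 0.162 CPM in controls (log2 fold change 0.68 ± 0.17, adjusted p = 0.00286) while HOXA2 beside it was lower. At day 2 HOTAIRM1 was higher by 0.45 ± 0.18 (adjusted p = 0.0382), a call lost in 9 of 14 alternatives with an adjusted p of up to 0.144. HOXA11-AS was higher at day 6 by 0.74 ± 0.22 (adjusted p = 0.00962). Of 21 genes that flank the clusters 15 were tested, with 4 higher and 6 lower at day 2, 4 higher and 4 lower at day 4, and 5 higher and 3 lower at day 6. The higher members were 26.7%, 26.7% and 33.3% of those tested and the lower ones 40%, 26.7% and 20%, the last close to the 21.7% of all genes. The lower count at day 2 was between 3 and 8 over all fits. Their median log2 fold change was -0.17, -0.03 and -0.01. CBX1, which lies beyond the 3′ end of HOXB, was lower by -0.44 ± 0.07 at day 4 and -0.77 ± 0.07 at day 6, and LNPK, beyond the 5′ end of HOXD, was higher by 0.51 ± 0.09 and 0.54 ± 0.09 at the same exposures. Of 38 other homeobox genes of the same class 11 were tested, with 4 higher and 3 lower at day 2, 2 higher and 2 lower at day 4, and 2 higher and 3 lower at day 6, and median log2 fold changes of 0.11, 0.00 and 0.10. The higher members were 36.4%, 18.2% and 18.2% of those tested and the lower ones 27.3%, 18.2% and 27.3%. MEOX1 was at 2.81 ± 1.13 CPM at day 2 against 0.405 ± 0.182 CPM in controls (log2 fold change 2.82 ± 0.42), and HHEX was lower by -0.89 ± 0.12 at day 6.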

How the data were processed

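RNA-seq of 12 AC16 libraries was available as 1 table of raw counts per gene, deposited by the authors, with 60607 rows, 60437 of them with a symbol. Per the labels the libraries were made with an NEBNext Ultra RNA kit. The submitters' processing notes name fastp 0.23.2, Trimmomatic 0.38, STAR 2.7.8, HTSeq 0.13.5 and GRCh38.p13. The order of these tools, the annotation and the strand setting were not given in the sources used here. Without a strand setting a gene and its partner on the other strand cannot be told apart. Every count column mapped to a sample, and 0 were left unused.

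Symbols, positions and exon lengths came from the table and GENCODE release 29 (GRCh38). Counts were tested with edgeR 4.0.16 (R 4.3.3, limma 3.58.1) by a robust quasi-likelihood fit over all 12 libraries and 4 groups, with TMM factors, a filter on low counts (at least 10 per library by group size and 15 in all) and Benjamini-Hochberg adjustment over 17320 genes, with calls at an adjusted p under 0.05. The common biological coefficient of variation was 0.0887 with 8 residual degrees of freedom. Levels are TMM-normalised CPM. The fit was tested on simulated counts.

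The members, gene lists and cell type markers were chosen with earlier results of these data known. Full values are given for tested members that were called against the control or in the test of any difference and reached 1 CPM in a group mean, and from each list for at most 4 called genes per comparison with the smallest p. Alternatives were RLE size factors, library totals, no low-count filter, a filter of 1 CPM in 3 libraries, the replicate number as a block, the compared groups alone, DESeq2 1.42.0 and each library left out. One more, without control replicate 2 and day 2 replicate 3 together, was chosen after seeing the data, and so was leaving libraries out of the cluster sums, with the TMM factors kept. One member is part of the counts, ranges and sums, and its own values are not reported here. Promoter windows were RefSeq's.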

Additional observations from a re-analysis of the deposited data

Results flagged for a closer look

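Between the exposures of 4 and 2 days the difference was tested directly, and it passed for 6 HOX genes. The log2 fold change of day 4 over day 2 was 1.07 for HOXA13, 0.55 for HOXB2, 0.49 for HOXB3, 0.74 for HOXB4, 0.72 for HOXB5 and 0.72 for HOXB6. For HOXA13 and HOXB4 the day 2 level overlapped the controls and the day 4 level was above them. For HOXB2, HOXB3, HOXB5 and HOXB6 the day 2 level was below the controls and the day 4 change against the control did not pass the test.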

How the results depend on the processing

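Of 35 calls of a HOX gene in a comparison, 20 were kept in all alternatives run and 15 were lost in at least 1, each of these also on leaving out a single library; none changed direction. Kept in all were 7 of 11 at day 2, 2 of 8 at day 4, 6 of 10 at day 6 and 5 of 6 between day 4 and day 2. Leaving out 1 library gave 5 to 7 HOX genes called at day 4 in place of 8, and 5 without control replicate 1 or day 4 replicate 1. Between day 6 and day 4 the count of HOX genes was 0, and 1 with the compared groups alone, 0 to 1 leaving out 1 library, and 2 without control replicate 2 and day 2 replicate 3. Over all genes that comparison called 1174, and 1837 with the compared groups alone, 572 to 871 leaving out 1 library, and 2027 without those libraries. The HOXA sum at day 2 was 79.7% of control with library totals and 86.8% with TMM. With library totals the split over all genes was 3842 higher and 2443 lower between day 4 and day 2, against 2828 and 3203 with TMM, and 1006 and 350 between day 6 and day 4, against 528 and 646. With the replicate block 10, 8 and 8 HOX genes were called at days 2, 4 and 6, 6 between day 4 and day 2 and 0 between day 6 and day 4, and 13 in the test of any difference; over all genes 7950, 6035, 7296, 5680 and 962 were called. Correlations of same-numbered deviations ran from -0.17 to 0.10 and gave no sign that the numbers pair the libraries. They cannot exclude a shared culture or batch. HOXD4 had no value under the filter of 1 CPM in 3 libraries, where 28 HOX genes were tested, 38 were tested with no filter, 30 in the fits that let HOXA6 in on leaving out 1 library, and 27 to 29 with the compared groups alone. Among the gene lists, of the up to 4 calls with the smallest p in each list and comparison, 74 in all, 63 were kept in all fits. Over the fits the count of lower genes was 3 to 5 for TALE and 3 to 8 for flanking genes at day 2, 0 to 2 for the HOX cluster non-coding RNAs at day 2, and 3 to 6 for Trithorax, 9 to 17 for Polycomb and 2 to 4 for flanking genes at day 4. The count of higher genes was 2 to 4 for Polycomb and 2 to 5 for flanking genes at day 2, and 3 to 5 for flanking genes at day 6. Leaving out 1 library gave HOXC sums of 81.4% to 100.5% of control at day 2 and 85.5% to 105.5% at day 4, and HOXD sums of 117.3% to 136.9% at day 6, the highest of each without control replicate 2. Depth limits the members below about 100 counts, HOXD4 and the 10 that were not tested.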
